A study of Mus musculus with 4 samples.

Results

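The clustered protocadherins are cell surface proteins of the cadherin family whose genes lie side by side in 3 clusters, called alpha, beta and gamma. Their signals were followed from growth to replicative senescence in MEFs, fibroblasts taken from mouse embryos, which stop dividing after some passages in culture. Members were all non-control probes whose RefSeq transcript belongs to a gene named Pcdha, Pcdhac, Pcdhb, Pcdhga, Pcdhgb or Pcdhgc with a number, which gave 61 of the 43553 probes on the array and 32 of the 58 genes that the reference table lists. In all, 17466 genes had a named probe. The beta cluster had 43 probes for 22 of 22 genes, the gamma cluster 15 probes for 8 of 22 genes, and the alpha cluster 3 probes for 2 of 14 genes. The family was chosen with values of the passage 7 against passage 2 contrast in view. All differences between passages for its members are therefore given as descriptions. Where members that pass the rule applied to all probes are counted, the share of all probes stands beside the count and nothing is read from it.

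The growing group was MEFs at passage 2 and the senescent group MEFs at passage 7, each with 2 arrays of 1 colour. The labels name no strain, genotype or embryonic age, and both groups were unmodified cells in the same serum-containing medium as far as the labels say. Per the labels, RNA of independent cultures was pooled before it was measured. If both arrays of 1 passage read the same pool, p-values measure no more than technical spread between arrays. All 4 arrays were read at 1 scan time, and array position and passage cannot be told apart.

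Each protocadherin of the alpha and gamma clusters is made from its own variable exon, which encodes the outer and membrane-spanning parts, joined to constant exons that all members of the cluster share and that encode the inner tail. Beta genes are single-exon genes with no shared constant part. In neurons each cell switches on a few of these promoters, a choice that depends on DNA methylation, on the factor CTCF and on cohesin loops to distant enhancers, and the proteins on the surface let a cell tell its own branches from those of others. The C-type isoforms at the end of the alpha and gamma clusters are under different control from the rest. In fibroblasts the family is far less studied.

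Levels are log2 of the processed signal relative to the 75th percentile of the same array, so a negative level means a signal under that percentile. That percentile was an intensity of 1024 and 1404 at passage 2, against 964 and 402 at passage 7. The share of spots well above background ran from 70.6% to 72.7% on the first 3 arrays and was 65.8% on passage 7 replicate 2. Over the 30868 probes tested, the median difference of passage 7 minus passage 2 was 0.21. Of 10 fibroblast markers on the array, 10 were well above background on all 4 arrays.

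Signals of the beta cluster were lower at passage 7 for a series of genes, most for Pcdhb9 and next for Pcdhb7, Pcdhb16, Pcdhb19 and Pcdhb20, while the probes of Pcdhb5, Pcdhb21 and Pcdhb22 differed by -0.14 to 0.02. The median difference over all 43 beta probes was -0.72, with a range from -2.21 to 0.64. Over the 18 beta probes (11 genes) that were well above background on all 4 arrays it was -0.69. Of those 18, 14 were lower at passage 7, where 39.3% of all probes tested were lower. Probes of the same gene are not separate observations, and nothing is read from this count. In these bulk samples, fewer cells with a transcript and less transcript per cell cannot be told apart. The beta genes resemble one another in sequence, and whether each probe reads 1 gene alone was not checked here.

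Pcdhb9 had the lowest difference of the family, and its probes had nearly the same profile. The first read -3.87 and -3.62 at passage 2, and -6.21 and -5.70 at passage 7. The other read -4.28 and -3.98 at passage 2, and -6.57 and -5.83 at passage 7. Both passage 7 arrays lay below both passage 2 arrays for each probe, with differences of -2.21 ± 0.27 and -2.07 ± 0.32 (log2, SE of the limma fit, n = 2 arrays per passage here and below), or 4.62-fold and 4.20-fold lower. For the second probe only passage 7 replicate 1 was well above background at that passage.

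Pcdhb7, like the other beta genes a cell surface cadherin, was among the brighter signals of its cluster at passage 2. Its first probe read -3.03 and -2.36 at passage 2, and -4.32 and -4.26 at passage 7, a difference of -1.60 ± 0.29. Its other probe read -3.08 and -2.77, then -4.59 and -4.23, a difference of -1.48 ± 0.24. Here too the passages did not overlap, and all of these spots were well above background.

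Pcdhb19 and Pcdhb20, neighbours near the end of the cluster, were also lower on both passage 7 arrays by both of their probes. Pcdhb20 read -3.89 and -4.06 at passage 2 against -5.13 and -5.18 at passage 7 by its first probe, and -3.94 and -3.87 against -4.99 and -5.19 by the other. Its differences, -1.18 ± 0.19 and -1.19 ± 0.20, were equal within their errors. Pcdhb19 read -4.40 and -4.89 against -6.01 and -5.87 by its first probe, a difference of -1.30 ± 0.25, and only replicate 1 was well above background at passage 7. Its dimmer probe read -5.24 and -5.78 against -7.32 and -6.73, and neither passage 7 spot was well above background. That probe was therefore at least 2.08-fold lower at passage 7, counted against the lowest signal well above background on each array or the probe's own, whichever was higher.

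These 4 genes hold the 8 member probes that passed the call rule used for all probes, a Benjamini-Hochberg adjusted p under 0.05 in limma and a change of at least 2-fold. They are 15.4% of the 52 member probes tested and 22.9% of the 35 beta probes tested. Of all probes tested, the rule called 17.2% in either direction and 8.53% as lower. Because the family was chosen on this contrast, nothing is read from that count. No member was called higher (8.72% of all probes were), and at an unadjusted p under 0.05 in limma 15 members were lower and 1 was higher, against 16.4% and 21.3% of all probes. Each fit that left out 1 array lost most of these 8 calls. In those fits the differences were -2.47 to -1.70 for Pcdhb9 and -1.93 to -1.27 for Pcdhb7. They were -1.81 to -1.05 for Pcdhb19 and -1.29 to -1.09 for Pcdhb20. With the replicate number as a block and without the filter on dim probes the differences were the same as first given and every member call was lost. With normexp and quantile normalization the differences of the 4 genes shrank to between -0.87 and -0.26, with no call. With normexp scaled to the 75th percentile, where limma called 0 of all probes, they turned to higher at passage 7, 0.87 and 1.1 for Pcdhb9, 0.38 and 0.63 for Pcdhb7, 1.39 and 1.6 for Pcdhb19 and 1.12 for both probes of Pcdhb20.

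**Figure D1:**
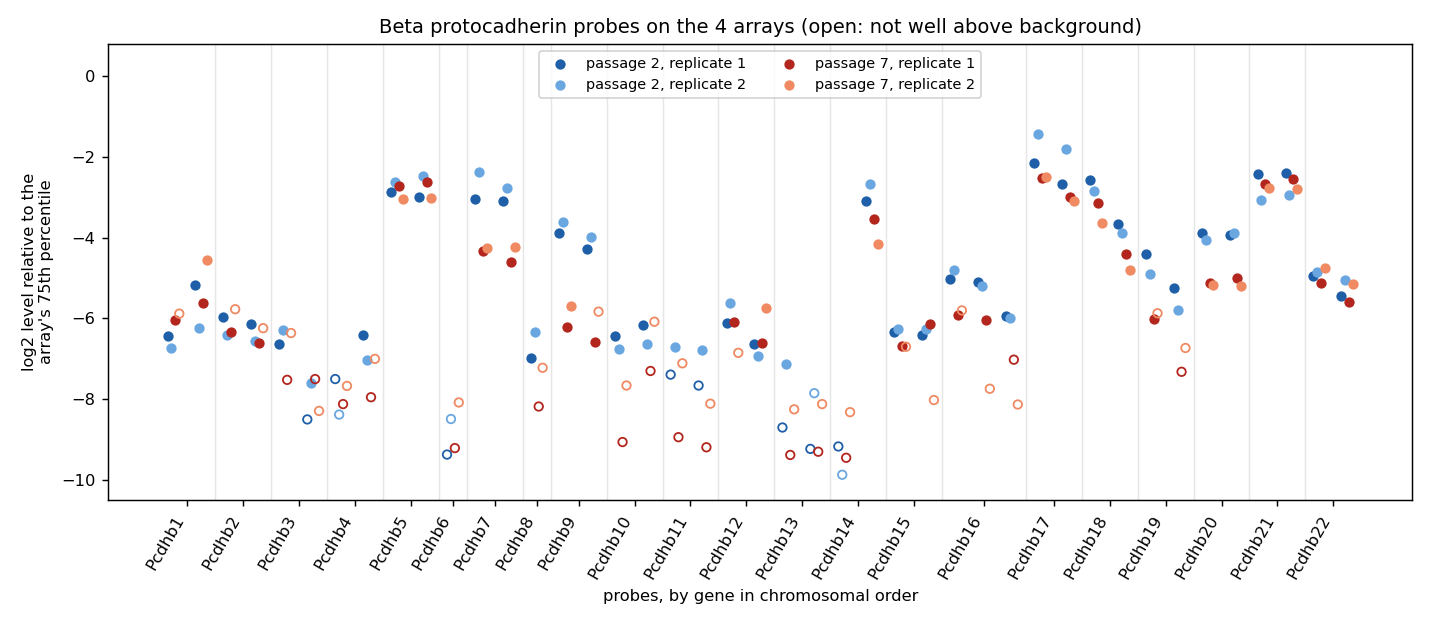
Log2 level of the 43 beta protocadherin probes, relative to the array's 75th percentile, on the 4 arrays, by gene in chromosomal order along the x axis. Open points were not well above background. The passage 7 points of Pcdhb7, Pcdhb9 and Pcdhb20 lie clear below the passage 2 points for both probes of each gene, while those of Pcdhb5 and Pcdhb21 overlap.

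Pcdhb16 had 3 probes, and all were lower at passage 7. The brightest read -5.01 and -4.79 at passage 2, and -5.91 and -5.80 at passage 7, a difference of -0.95 ± 0.20. Another read -5.09 and -5.20 at passage 2 but -6.04 and -7.74 at passage 7, a measured difference of -1.74 ± 0.60. For both of these probes the spot of passage 7 replicate 2 was not well above background, so the size of their differences rests on 1 measured passage 7 array. The dimmest read -5.95 and -5.99, then -7.02 and -8.13 with neither spot well above background, which put it at least 1.45-fold lower. The measured values of the passages did not overlap for any of these probes.

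Pcdhb17, Pcdhb18 and Pcdhb14 were lower by less than 2-fold. Pcdhb17 read -2.15 and -1.42 at passage 2 against -2.52 and -2.50 at passage 7 by its first probe, and its differences were -0.72 ± 0.31 and -0.79 ± 0.34. Pcdhb18 read -2.58 and -2.85 against -3.14 and -3.63 by its first probe, and its differences were -0.67 ± 0.26 and -0.84 ± 0.24. The passage 7 arrays lay below the passage 2 arrays for each of these probes. The probe of Pcdhb14 that was above background read -3.09 and -2.66 against -3.54 and -4.16, a difference of -0.97 ± 0.31. It was the tested probe nearest to the 2-fold limit from outside. The nearest inside by its measured value was that of Pcdhb8, at -6.97 and -6.34 against -8.18 and -7.22, a measured difference of -1.05 ± 0.43. Neither of its passage 7 spots was well above background, and no bound on its fold could be given, so its side of the limit is not settled. Among probes well above background on all 4 arrays, the nearest inside was the first of Pcdhb20, at -1.18.

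Pcdhb5, Pcdhb21 and Pcdhb22 showed overlapping passages on well measured spots. Pcdhb5 read -2.86 and -2.61 at passage 2, and -2.73 and -3.03 at passage 7, by its first probe, and its differences were -0.14 ± 0.23 and -0.09 ± 0.29. Pcdhb21 read -2.42 and -3.06, then -2.68 and -2.76, by its first probe, and its differences were 0.02 ± 0.29 and 0.01 ± 0.27. Pcdhb22 read -4.95 and -4.86, then -5.11 and -4.76, by its first probe, and its differences were -0.03 ± 0.22 and -0.13 ± 0.27. All of their spots were well above background on the 4 arrays. These genes lie in the same row of neighbours as the 4 called ones, Pcdhb21 directly after Pcdhb20.

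Pcdhb1, the first gene of the cluster, had the highest differences among the tested beta probes. Its dimmer probe read -6.44 and -6.73 at passage 2, and -6.03 and -5.88 at passage 7, a difference of 0.62 ± 0.22 without overlap, with replicate 2 not well above background at passage 7. Its brighter probe read -5.16 and -6.24, then -5.61 and -4.56, a difference of 0.61 ± 0.53 with overlap between the passages. Both were less than 2-fold higher. Pcdhb2, the next gene, read -5.96 and -6.42, then -6.34 and -5.77, by its first probe, a difference of 0.14 ± 0.31, and -0.07 ± 0.26 by the other, again with replicate 2 not well above background at passage 7.

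Probes of the same beta gene mostly gave the same difference. In 15 beta genes with at least 2 tested probes, the spread between probes had a median of 0.14 on the log2 scale and was under 0.25 in 11 genes. Probes of 2 genes disagreed by over 1 log2 unit. Those of Pcdhb10 differed by -1.76 ± 0.51 and -0.29 ± 0.47, and no passage 7 spot of either was well above background. Those of Pcdhb12 differed by -0.61 ± 0.36 and 0.60 ± 0.35 and had 1 open passage 7 spot, so no direction was settled for that gene. Of the rest, the tested probes of Pcdhb3, Pcdhb4 and Pcdhb15 had measured differences of -0.74 to -0.39. No passage 7 spot of Pcdhb3 or Pcdhb4 was well above background, nor was replicate 2 of passage 7 for Pcdhb15. The probes of Pcdhb3 and Pcdhb4 that were not tested gave 0.15 and 0.05, so the size of these differences is not settled.

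Much of the beta cluster lay close to the limit of detection. Of 43 beta probes, 35 and 39 were well above background at passage 2, against 28 and 18 at passage 7. On both passage 2 arrays and neither passage 7 array 7 probes were well above background, none showed the opposite, and 4 were so on no array. The 7 were among the 35 beta probes tested, and over all probes tested 3.21% had the pattern of those 7. The lowest log2 level well above background was -7.15 and -7.72 at passage 2, against -7.13 and -6 at passage 7, so that passage 7 replicate 2 resolved dim probes least. The filter on dim probes kept 35 beta probes of 19 genes, and it left out Pcdhb6, Pcdhb11 and Pcdhb13 altogether. The measured differences of the probes left out ran from -1.43 for Pcdhb11 to 0.64 for the dim probe of Pcdhb14, with no order among values this low.

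**Figure D2:**
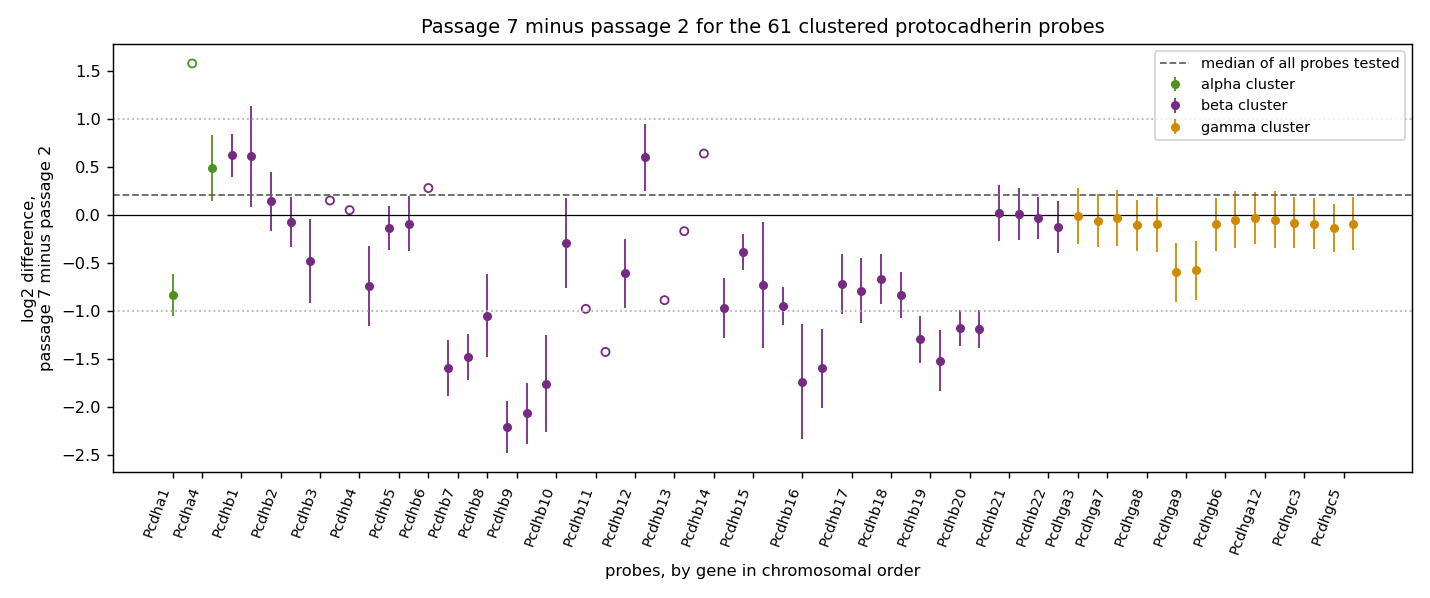
Log2 difference of passage 7 minus passage 2 for the 61 clustered protocadherin probes in chromosomal order, coloured by cluster. Bars are standard errors of the limma fit, open points were not tested, the dashed line is the median of 0.21 over all probes tested, and the dotted lines mark a 2-fold change. Beta probes spread from -2.21 to 0.64, and the gamma probes apart from those of Pcdhga9 lie between -0.14 and -0.01.

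The gamma cluster gave bright, almost identical signals for all but 1 of its genes. The 13 probes of Pcdhga3, Pcdhga7, Pcdhga8, Pcdhga12, Pcdhgb6, Pcdhgc3 and Pcdhgc5 had processed intensities between 1560 and 1750 on passage 2 replicate 1 and between 3255 and 3692 on passage 2 replicate 2. On the passage 7 arrays they lay between 1741 and 1918 and between 716 and 780. Their coefficient of variation within an array was 3.04% to 4.09%. So near an identity over 7 genes means that they cannot be counted as 13 separate measurements. The files used here hold no probe sequences, and whether these probes lie in the constant exons that all gamma transcripts share was not checked.

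On the log2 scale, the mean of these 13 gamma probes was 0.68 and 1.30 at passage 2, against 0.94 and 0.89 at passage 7. Both passage 7 arrays lay between the passage 2 arrays. The mean was 0.99 ± 0.44 (SD, n = 2) at passage 2 and 0.91 ± 0.03 (SD, n = 2) at passage 7. Differences of single probes ran from -0.14 to -0.01, with standard errors of 0.25 to 0.3. No gamma probe was called in either direction. At an unadjusted p under 0.05 in limma 0 of 15 were lower and 0 were higher, against 16.4% and 21.3% of all probes, and since 13 of the 15 are close to 1 measurement nothing is read from these counts. The median of the 15 gamma probes was -0.09 and turned to 0.22 without passage 2 replicate 2.

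The C-type isoforms of the gamma cluster were covered by 2 probes each for Pcdhgc3 and Pcdhgc5. Pcdhgc3, the C-type gamma protocadherin found widely outside neurons, read 0.71 and 1.29 at passage 2, and 0.99 and 0.85 at passage 7, by its first probe, and its differences were -0.08 ± 0.27 and -0.09 ± 0.27. Pcdhgc5 read 0.77 and 1.26, then 0.92 and 0.83, by its first probe, and its differences were -0.14 ± 0.25 and -0.09 ± 0.28. Both stood within the narrow band of the other gamma probes, so these values cannot be counted as separate measurements of the 2 isoforms. Probes named for Pcdhgc3 outside the family as defined, given at the end, read between -2.50 and -1.93. Probes to transcripts of Pcdhac1, Pcdhac2 and Pcdhgc4 were not found by the rule.

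Pcdhga9 stood apart from the other gamma genes. Its first probe read -0.21 and 0.47 at passage 2, and -0.61 and -0.32 at passage 7, a difference of -0.60 ± 0.31. Its other probe read -0.74 and 0.02, then -0.98 and -0.89, a difference of -0.58 ± 0.31. The passage 7 arrays lay below the passage 2 arrays for both probes, while the gap between the passage 2 arrays was as large as the difference between passages. It shared with the other gamma probes the higher level on passage 2 replicate 2.

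**Figure D3:**
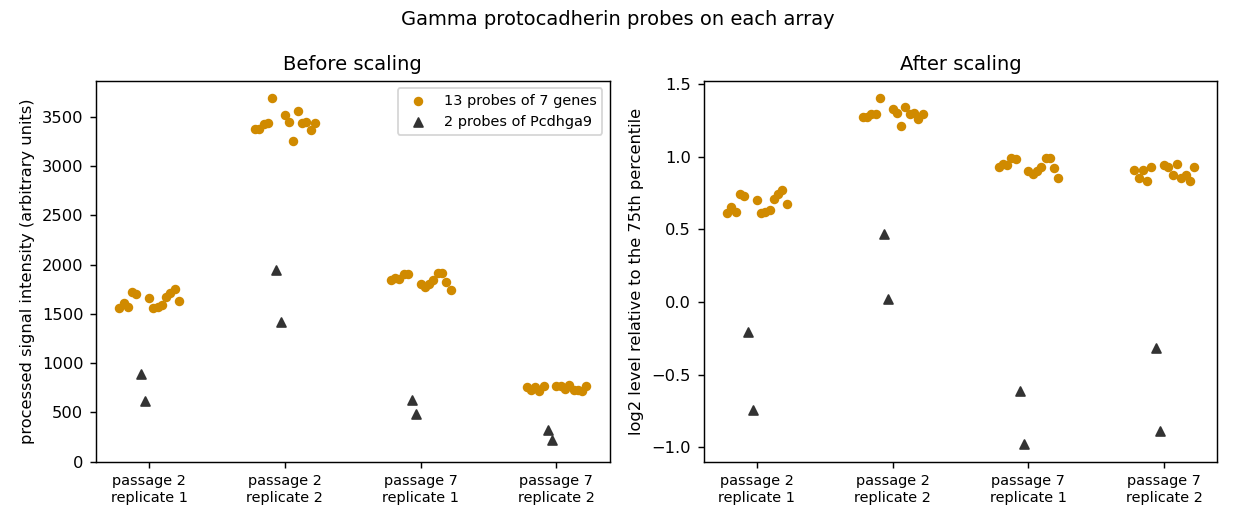
Processed signal intensity (left, arbitrary units) and log2 level relative to the array's 75th percentile (right) of the gamma protocadherin probes on each array; each point is 1 probe. The 13 probes of 7 genes form 1 tight band on every array, from 716 to 780 on passage 7 replicate 2, and the 2 probes of Pcdhga9 lie below it.

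In the alpha cluster 2 genes had probes. Pcdha1 read -1.82 and -1.44 at passage 2, and -2.45 and -2.49 at passage 7, a difference of -0.84 ± 0.22, or 1.79-fold lower, without overlap. Pcdha4 was dim. Its brighter probe read -5.76 and -6.44, then -5.86 and -5.37, a difference of 0.49 ± 0.34 with overlapping passages, and its other probe was well above background only on passage 7 replicate 1 and was not tested. No alpha probe passed the call rule. At an unadjusted p under 0.05 in limma 1 of 2 tested alpha probes was lower, against 16.4% of all probes, from which nothing is read.

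Set side by side, the clusters gave different medians over all of their member probes, 0.49 for the 3 alpha probes, -0.72 for the 43 beta probes and -0.09 for the 15 gamma probes. The spread of the cluster median between arrays of 1 passage, as an SD, was 0.42 for alpha, 0.21 for beta and 0.32 for gamma. The difference between clusters was not tested, since the family was chosen on this contrast and probes of a cluster are not replicates. Among tested probes, both passage 7 arrays lay below both passage 2 arrays for 19 of 35 beta, 2 of 15 gamma and 1 of 2 alpha probes, where 27.4% of all probes did so. The opposite held for 2 beta probes and for 38.4% of all probes. Only 18 of the 35 tested beta probes were well above background on all 4 arrays, against 27817 of the 30868 probes tested. The rest of the beta probes passed the filter through passage 2 alone, where they were well above background on both arrays. Their low passage 7 values are thus in part a matter of selection, and nothing is read from these counts. The sign of the alpha median depended on the probes counted and on the processing. By the brightest probe of each gene, which leaves out the dim probe of Pcdha4 that was not tested, it was -0.17. In the authors' deposited value table, with all 3 alpha probes, it was -0.04, which was the value of the tested Pcdha4 probe there. The sign of the beta median depended on the background correction. It was 1.71 with normexp scaled to the 75th percentile, where the median of all probes was 0.71, and -0.12 with normexp and quantile normalization.

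Regulators of protocadherin promoter choice were read from a list of 26 genes for CTCF, cohesin and its loading and release factors, DNA and histone methylation, SMCHD1 and REST. Of 24 on the array and tested, 5 fell and 0 rose by the same rule, where 8.86% of all genes fell and 9.08% rose, each gene by its brightest probe. Their median difference was -0.55, against 0.20 over all genes. At an unadjusted p under 0.05 in limma 11 were lower and 1 was higher, against 16.5% and 22.5% of all genes.

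Of the cohesin genes, Rad21, whose product closes the cohesin ring, fell from 1.57 and 2.32 to 0.52 and 0.23, a difference of -1.57 ± 0.33 (adjusted p = 0.040, limma). Smc3, an arm of the ring, fell from -1.69 and -1.16 to -2.88 and -3.34, a difference of -1.69 ± 0.30 (adjusted p = 0.029, limma). Pds5b, which regulates the release of cohesin from DNA, fell from -0.61 and -0.34 to -2.16 and -2.45, a difference of -1.83 ± 0.23 (adjusted p = 0.016, limma). The other probes of these genes differed by -2.39 to -1.52. Not all cohesin factors went this way. The loading factors were higher without a call, Mau2 by 1.06 ± 0.45 (adjusted p = 0.16, limma) and Nipbl by 0.67 ± 0.22 (adjusted p = 0.1, limma). Their other probes differed by 0.60 to 1.08. Pds5a had a difference of -0.05 ± 0.39.

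The cohesin subunit Stag2 had a difference of -0.96 ± 0.20 (adjusted p = 0.040, limma), under the 2-fold minimum. Ctcf, the factor that binds most of the variable promoters, read 0.38 and 0.85, then -0.03 and -0.12, a difference of -0.69 ± 0.24 (adjusted p = 0.12, limma). It did not pass the rule, though its passages did not overlap and its other probes differed by -1.03 and -0.94.

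Among the genes of DNA methylation and silencing, Dnmt1, which copies methylation to newly made DNA, fell from 3.35 and 3.78 to 2.07 and 2.05, a difference of -1.5 ± 0.23 (adjusted p = 0.023, limma). Smchd1, a repressor of protocadherin promoters and of the inactive X chromosome, fell from 1.78 and 2.22 to 0.78 and 0.80, a difference of -1.21 ± 0.24 (adjusted p = 0.035, limma). Dnmt3b, which sets methylation on these promoters in the early embryo, had a difference of -0.91 ± 0.19 (adjusted p = 0.039, limma), under 2-fold at its brightest probe and -1.37 and -1.78 at the others. Uhrf1, the partner of DNMT1, had the lowest difference of the list at -1.98 ± 0.53 (adjusted p = 0.068, limma), with 0.37 and 1.86 on the passage 2 arrays, and did not pass. All calls of this list and of the 3 lists that follow were lost without passage 2 replicate 2, without passage 7 replicate 2 and with the replicate number as a block. With normexp scaled to the 75th percentile none was kept either. In that setting Dnmt3b turned to 1.31, and the differences of Smc3 and Pds5b were -0.22 and -0.67.

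**Figure D4:**
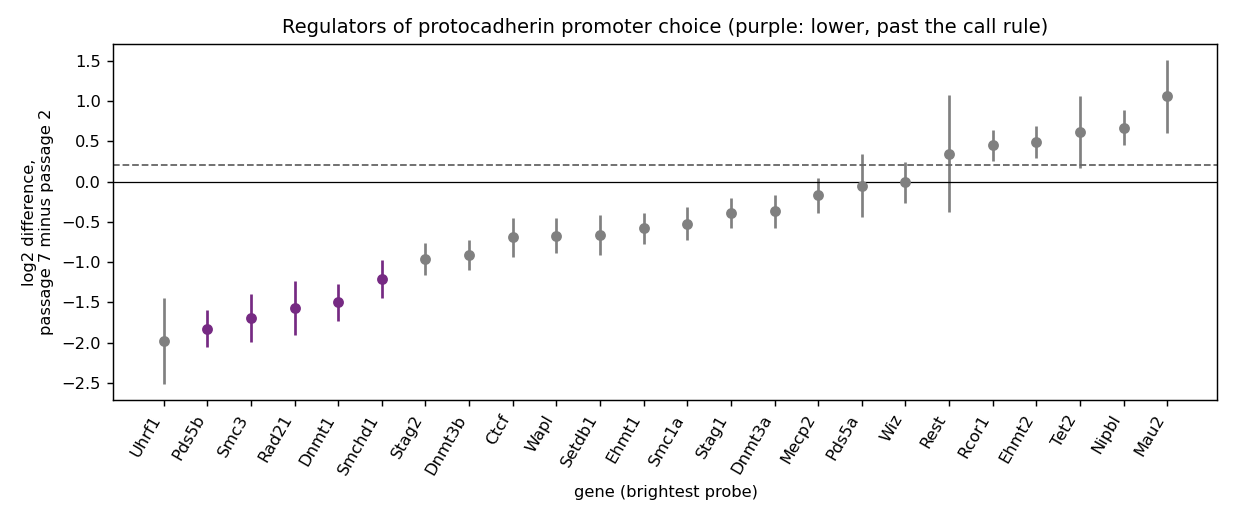
Log2 difference of passage 7 minus passage 2 for the 24 tested regulators of protocadherin promoter choice, each by its brightest probe, in order of size. Bars are standard errors of the limma fit, the dashed line is the median of all probes tested (0.21), and purple marks the 5 genes that fell past the call rule, from -1.83 for Pds5b to -1.21 for Smchd1.

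Of 25 tested genes for partners of the protocadherin tail and for enzymes that cut these proteins, 2 rose and 1 fell, with a median difference of 0.17; over all genes 9.08% rose and 8.86% fell. Ptk2b, a kinase of the focal adhesion family that protocadherin tails bind and inhibit, rose from 1.07 and 1.04 to 3.10 and 3.27, a difference of 2.13 ± 0.19 (adjusted p = 0.011, limma), or 4.38-fold. Psen2, a catalytic subunit of gamma-secretase, the enzyme that frees the protocadherin tail, rose from 1.01 and 0.86 to 2.07 and 2.05, a difference of 1.12 ± 0.19 (adjusted p = 0.028, limma). Marcks, an actin-regulating target of protein kinase C downstream of gamma protocadherins, fell from 2.84 and 3.11 to 1.97 and 1.83, a difference of -1.08 ± 0.21 (adjusted p = 0.035, limma). The call of Psen2 did not hold with median scaling, in the authors' deposited value table or with normexp, where its difference was 0.69 to 0.95.

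Non-clustered protocadherins are single genes outside the clusters with cadherin repeats of the same kind. Of 9 tested, 1 rose and 2 fell, with a median difference of -0.68, each gene by its brightest probe. Over all genes 9.08% rose and 8.86% fell. The choice of probe mattered for Pcdh8, which was not called at 0.77 by its brightest probe but read 1.91 by its other tested probe. Pcdh18 fell from 2.10 and 2.37 to 0.99 and 0.91, a difference of -1.28 ± 0.21 (adjusted p = 0.025, limma). Pcdh20 fell from -3.26 and -2.83 to -5.07 and -4.38, a difference of -1.68 ± 0.33 (adjusted p = 0.035, limma), but was 0.55 with normexp scaled to the 75th percentile. Pcdh1 rose from -6.32 and -7.04 to -4.83 and -4.93, a difference of 1.79 ± 0.31 (adjusted p = 0.027, limma), and another tested probe gave 1.77. In the authors' deposited value table the difference of Pcdh1 was 0.50, and with normexp and quantile normalization it was 0.26, without a call in either. Its passage 2 levels lay near the lowest levels well above background on those arrays, -7.15 and -7.72.

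Genes that lie inside or next to the clusters but are no clustered protocadherin were also read. Of 16 tested, 2 rose and 0 fell, with a median difference of 0.40, where 9.08% of all genes rose and 8.86% fell. At an unadjusted p under 0.05 in limma 3 were higher and 1 was lower, against 22.5% and 16.5% of all genes. The 2 were Pcdh1, given above, and Zmat2, a zinc finger gene next to the alpha cluster. Zmat2 rose from -0.96 and -0.79 to -0.01 and 0.30, a difference of 1.02 ± 0.22 (adjusted p = 0.044, limma), but its other probes differed by 0.38 and -0.16. Its call did not hold with median scaling, in the authors' deposited value table or with normexp. Hdac3 had a difference of 0.33 by its brightest probe, but -0.66 and -0.67 by its others. The difference between these neighbours and the beta genes was not tested.

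Some markers of other cell types passed the call rule, which 8.86% of all genes passed as lower and 9.08% as higher. Of 8 tested markers of glia and neural crest 3 fell and 0 rose, and the summed level of 11 on the array, as multiples of the array's 75th percentile, was 1.95 and 2.25 at passage 2 against 0.688 and 0.741 at passage 7. Foxd3, a neural crest factor, was at least 2.26-fold lower (adjusted p = 0.027, limma) and well above background on neither passage 7 array. Slc1a3, a glial glutamate transporter, fell by 1.85 ± 0.20 (adjusted p = 0.013, limma), and Fabp7, a radial glial fatty acid binding protein, fell by 1.21 ± 0.20 (adjusted p = 0.026, limma). Of 10 tested neuron markers 2 rose and 4 fell, among them Stmn2, a microtubule regulator, with a difference of 2.25 ± 0.20 (adjusted p = 0.010, limma), and Nefl, a neurofilament, with -2.38 ± 0.35 (adjusted p = 0.021, limma). The sum of 13 was 8.32 to 10.4 at passage 2 and 10.2 to 10.3 at passage 7. The defining neuron marker Rbfox3 and the glial marker S100b were well above background on no array.

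Of 10 macrophage, endothelial and epithelial markers 4 fell, the macrophage genes Adgre1 and Csf1r and the epithelial keratins Krt8 and Krt18. No endothelial marker was called, and the differences of those markers ran from -0.91 for Tek to 0.84 for Kdr. The sum over the 10 macrophage, endothelial and epithelial markers was 2.55 to 2.68 at passage 2 against 1.12 to 1.33 at passage 7. Of 10 fibroblast markers 2 fell, Pdgfra, a growth factor receptor of mesenchymal cells, by 2.54 ± 0.27 (adjusted p = 0.012, limma) and Lum, a proteoglycan of connective tissue, by 3.00 ± 0.21 (adjusted p = 0.0096, limma). The sum of all 10 was 251 to 271 at passage 2 and 281 to 379 at passage 7. The part of these cell type markers in the protocadherin differences was not tested.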

How the data were processed

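Spots of the 4 Cy3 arrays were quantified by Feature Extraction 10.5.1.1 (Agilent), and per the file headers the deposited processed signal intensity has the background subtracted. The authors' value table holds log2 values; the submitters' processing notes name limma, with no version, and how the table was centred and background-corrected is unknown. Its columns correlated with the log2 median intensity of their own array at 0.9986 to 1 across spots, with column medians of 6.3, 6.3, 6.24 and 6.14.

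For the values given, log2 processed signal minus the 75th percentile of the array over non-control spots was taken, outlier spots (14 to 61 per array) were left out, and no spot was saturated. Spots of 1 probe were averaged. Probes for which both arrays of 1 or both passages were well above background entered limma 3.58.1 in R 4.3.3 (lmFit, eBayes, no covariate), with Benjamini-Hochberg adjustment over 30868 probes. Tests were two-sided. List genes were read by the probe with the highest mean, and such counts for all genes rest on 13847 genes. Probes were named through RefSeq accessions with the GRCm38.p6 gene table (31089 of 31850 matched). The array design uses another build, so no coordinates are given.

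The members, the lists of other genes and the markers were chosen with earlier results of these data known. Named members are the 4 highest and 4 lowest tested differences per cluster, the C-type isoforms, the probes nearest to the 2-fold limit and genes whose probes disagree by over 1 log2 unit; from the other lists, up to 3 calls per direction, Ctcf, Rad21, Dnmt3b and Smchd1. Other members, Pcdhb7, Pcdhb19 and Pcdhb20 among them, the genes Stag2, Uhrf1, Mau2, Nipbl, Pds5a, Pcdh8 and Hdac3 and single markers were named after their values were seen.

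The code was tested on simulated data. A first simulation, with each probe's own replicate spread and smaller changes, recovered no call. Its spread and its sizes of change were then both revised. The version kept drew the spread from limma's own estimate and used changes of 3 and 4 log2 units, of which 66% and 85% were recovered. All member differences were smaller than these changes, so the simulation does not show whether changes of their size are recovered. The analysis itself was not altered. Alternatives were other background corrections, scalings, filters, probe choices, variance models and thresholds, the replicate block and leaving out each array. Normexp was planned on the mean spot signal and run on the median signal with an offset of 50. The replicate numbers were not taken as pairs (correlation of replicate differences between the passages -0.16 across tested probes).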

Additional observations from a re-analysis of the deposited data

How the results depend on the processing

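No member probe was called higher under any of the 17 alternatives. The count called lower, 8 as reported, was 0 with normexp under either scaling, 0 without the filter on dim probes, 0 with the replicate block, 13 with median scaling, 5 in the authors' deposited value table, 5 among probes well above background on all 4 arrays, 4 with the brightest probe and 5 with the mean of probes per gene, and 0 to 3 leaving out 1 array. At an unadjusted p under 0.05 in limma, members lower were 0 and 10 under the normexp settings, 15 without the filter, 15 with the replicate block and 11 without passage 2 replicate 2. With the replicate block, and without passage 2 replicate 2, limma called 0 of all probes. With levels floored at the highest lowest measured level, chosen after seeing the data, 5 were called and the beta and alpha medians were 0. The beta median of -0.72 was 1.71 with normexp scaled to the 75th percentile, -0.12 with normexp and quantile scaling, -0.29 in the authors' deposited table and -0.81 to -0.39 leaving out 1 array. The alpha median of 0.49 was 1.86, 0.02 and -0.04 in those settings and -0.17 with the brightest probe. The gamma median moved by less than the spread between arrays in all 17. With normexp scaled to the 75th percentile, differences turned to 0.38 and 0.63 for Pcdhb7, 0.87 and 1.1 for Pcdhb9, 1.39 and 1.6 for Pcdhb19, 1.12 for both probes of Pcdhb20, and 0.55 for Pcdh20. Leaving out 1 array, differences were -2.47 to -1.70 for Pcdhb9, -1.93 to -1.27 for Pcdhb7, -1.81 to -1.05 for Pcdhb19 and -1.29 to -1.09 for Pcdhb20, with a call in 3, 1, 0 and 0 of 4 fits. Over the 4 other lists, 4 genes were called higher and 8 lower. These became 0 and 0 with normexp scaled to the 75th percentile, 1 higher with normexp and quantile, 13 lower with median scaling, 1 and 14 in the authors' table, 1 and 0 without the filter, 0 and 0 with the replicate block, 5 lower with the floor, and 0 to 5 and 0 to 7 leaving out 1 array. Of all called probes 50.6% were higher, and 34.3% in the authors' table. The causes were not tested. The low signal of passage 7 replicate 2 limits what dim probes can show.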

Other observations

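Probes of the design that carry a protocadherin name but no RefSeq transcript lie outside the family as defined, and their values are given without a comparison. Probes that the design named for Pcdhgc3 read -2.10, -2.16, -2.21 and -1.93 and -2.40, -2.11, -2.39 and -2.50 on the passage 2 and passage 7 arrays in turn, with differences of 0.06 ± 0.21 and -0.19 ± 0.21. A probe named for Pcdhgb7, a gamma gene with no RefSeq probe here, read -3.57 and -4.32 at passage 2 and -3.59 and -2.77 at passage 7, a difference of 0.77 ± 0.42. Its other probe was well above background on no array.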
